A study of Mus musculus with 10 samples.

Results

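The receptors of the common gamma chain cytokines were followed as transcripts in CD8+ T cells with and without sodium acetate (NaAc). Members were the entries of the gene table named Il2ra, Il2rb, Il2rg, Il4ra, Il9r, Il15ra and Il21r, 7 of 57825 listed genes, and each name was listed once. CD8+ T cells were isolated from the spleens of female Balb/c mice with a magnetic kit, activated for 12 h on anti-CD3-coated plates with anti-CD28 and 15 ng/ml recombinant mouse IL-2, kept with or without 5 mM NaAc for 24 h, and co-cultured for 48 h with 4T1, a mouse mammary carcinoma cell line. RNA from cells that the methods call purified CD8+ T cells was sequenced in 5 samples without NaAc (CD8+4T1) and 5 with it (CD8+4T1+NaAc), labelled as day 3. The paper's methods describe the isolation from spleen, and no step that separated the cells from 4T1 cells after co-culture. Both groups were given IL-2, itself a ligand of these receptors, and no sample lacked tumor cells or IL-2. The labels do not say whether the 5 samples of a group came from separate mice or cultures, so p-values measure only the spread between these samples, which may be technical.

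The common gamma chain, encoded by Il2rg, is the signalling subunit shared by the receptors for IL-2, IL-4, IL-7, IL-9, IL-15 and IL-21, and its loss causes severe combined immunodeficiency. Each cytokine also needs chains of its own: the alpha chain CD25 (Il2ra) raises the affinity for IL-2, the beta chain CD122 (Il2rb) serves both IL-2 and IL-15, Il15ra holds IL-15 and can present it to a neighbouring cell, and Il4ra, Il9r and Il21r pair directly with the gamma chain. JAK1 binds the beta chain CD122 and the chains that pair directly with the gamma chain, and JAK3 binds the gamma chain itself. The signal passes mainly to STAT5 for IL-2, IL-7, IL-9 and IL-15, to STAT6 for IL-4 and to STAT3 for IL-21. In CD8+ T cells these receptors are known for their part in clonal expansion, effector function and survival as memory cells.

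Levels are in FPKM, a fragment number scaled to the length of the gene and to the depth of the library. The FPKM referred to between 16306447 and 18853726 fragments per sample, and the listed genes held 95.5% to 97.9% of them in CD8+4T1 and 89.8% to 92.1% in CD8+4T1+NaAc. The FPKM total was also smaller with NaAc, between 282995 and 295928 against 310965 to 335151 without it. Of the 10 T cell markers checked, including Cd3d, Cd3e, Cd3g, Cd8a and Cd8b1, all were measured in every sample, and their summed level was 832 to 939 FPKM in CD8+4T1 and 764 to 837 FPKM in CD8+4T1+NaAc. The summed level of 15 epithelial markers of 4T1 cells was 14.7 to 24.7 FPKM without NaAc and 74.7 to 187 FPKM with it, and the groups did not overlap. Its largest parts with NaAc were Lcn2, Krt8 and Krt18, at means of 40.2, 34.2 and 26.4 FPKM, while Epcam, Cldn7 and Dsp were not called. Of 4 tested markers of CD4+ and regulatory T cells, Cd4 rose (0.541 ± 0.169 to 1.601 ± 0.187 FPKM) and 3 were not called, where 17.6% of all genes were called higher. Among markers of other cells, 3 of 5 tested myeloid markers rose, with S100a8 at 0.398 ± 0.318 and 2.94 ± 1.13 FPKM and the uncalled Cd68, the most abundant, at 25.8 ± 2.97 and 22.8 ± 1.73 FPKM. The myeloid sums overlapped, at 25.6 to 36.3 FPKM without and 30.2 to 35.97 FPKM with NaAc, while none of 2 tested B cell markers was called and all 4 NK cell markers were under the filter. Foxp3, which marks regulatory T cells rich in CD25, was at 0.221 ± 0.066 FPKM without and 0.179 ± 0.102 FPKM with NaAc. In such bulk samples fewer cells of a type and less RNA per cell cannot be told apart, and the part of other cells in the receptor levels was not tested.

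Stretches of 250 bases before a listed transcription start (RefSeq, GRCm38.p6) are shown for the 3 members that were lower with NaAc and the 1 that was higher, as the DNA before the start of their transcripts. These coordinates are of another build than the gene positions given with the values, and the numbers of the builds cannot be set against each other. Capitals mark the only match found to the motifs searched. Of the pair of Il15ra starts, only the one with that match is shown.
Il2ra (chr2:11642542-11642791, plus strand): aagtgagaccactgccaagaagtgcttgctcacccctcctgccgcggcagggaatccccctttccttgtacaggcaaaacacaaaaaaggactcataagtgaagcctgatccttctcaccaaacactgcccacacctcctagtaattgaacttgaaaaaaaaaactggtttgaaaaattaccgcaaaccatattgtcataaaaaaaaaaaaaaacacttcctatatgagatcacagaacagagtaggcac
Il15ra, second of its starts (chr2:11705462-11705711, plus strand): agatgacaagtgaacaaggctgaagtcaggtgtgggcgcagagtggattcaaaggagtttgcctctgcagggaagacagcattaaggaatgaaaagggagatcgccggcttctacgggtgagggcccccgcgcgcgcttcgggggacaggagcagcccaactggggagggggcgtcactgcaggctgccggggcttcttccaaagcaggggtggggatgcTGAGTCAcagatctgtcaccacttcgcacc
Il2rg (chrX:101268256-101268505, minus strand): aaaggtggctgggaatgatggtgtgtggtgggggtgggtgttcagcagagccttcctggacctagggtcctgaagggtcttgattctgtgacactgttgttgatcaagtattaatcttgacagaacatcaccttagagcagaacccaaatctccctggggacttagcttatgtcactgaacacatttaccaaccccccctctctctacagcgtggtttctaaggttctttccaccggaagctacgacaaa
Il21r (chr7:125603179-125603428, plus strand): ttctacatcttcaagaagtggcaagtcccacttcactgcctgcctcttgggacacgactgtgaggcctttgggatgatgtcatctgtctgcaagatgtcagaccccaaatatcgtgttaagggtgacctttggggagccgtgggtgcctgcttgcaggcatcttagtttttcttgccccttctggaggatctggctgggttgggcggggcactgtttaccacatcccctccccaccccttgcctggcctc
Of the 7 members, 6 had such a window (Il2rb had none), 7 windows in all, each with 50 bases after the start added, because Il15ra had a pair of starts. They were searched on both strands for the STAT motif TTCNNNGAA, for its form with 4 bases between TTC and GAA, and for the AP-1 motif TGANTCA. Of 32851 windows of this length, 8.30% held the first, 6.95% the second and 7.81% the third. Among the members' windows there was 1 match, TGAGTCA in the second Il15ra window, with its first base 30 bases before the start. A match of letters is no measured binding site, and windows without one may hold other forms of these motifs.

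In CD8+4T1 cells without NaAc, Il2ra was the most abundant of the receptor chains, at 166 ± 5.28 FPKM (mean ± SD, n = 5). Il2rb followed at 110 ± 6.22 FPKM and Il2rg at 106 ± 2.77 FPKM, and the ranges of these neighbours overlapped. Il21r stood at 84.2 ± 1.35 FPKM, Il4ra at 37.5 ± 1.41 FPKM and Il15ra at 10.5 ± 0.98 FPKM, each step clear of the spread between samples. Il9r was barely measured, at 0.248 ± 0.109 FPKM. With NaAc the order changed at 1 place, where Il21r stood above Il2rg in 4 of 5 samples, and the ranges of Il2ra, Il2rb, Il21r and Il2rg formed an overlapping series from 136 ± 8.44 to 88.3 ± 5.29 FPKM. The remaining order, Il4ra above Il15ra above Il9r, was the same in every sample of both groups.

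Genes were compared with limma on log2(FPKM + 0.1) wherever the mean over the 10 samples reached 0.5 FPKM, and p-values were adjusted by Benjamini-Hochberg over the 15710 genes tested, with calls made under 0.05. Of the 7 members, 6 were tested. Il2ra, Il2rg and Il15ra fell with NaAc, Il21r rose, and Il2rb and Il4ra were not called. Of all genes tested, 36.5% were called, 17.6% as higher and 19.0% as lower, so that many genes outside this family were also called, and the median log2 fold change was -0.13 over the 6 members and -0.02 over all genes tested. Falls were more common among abundant genes, and all 6 members averaged above 5 FPKM. A fit of only the 7800 genes at or above that level called 2476 lower and 1257 higher, with a median of -0.08. The plot of FPKM by sample shows the 7 members side by side.

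**Figure D1:**
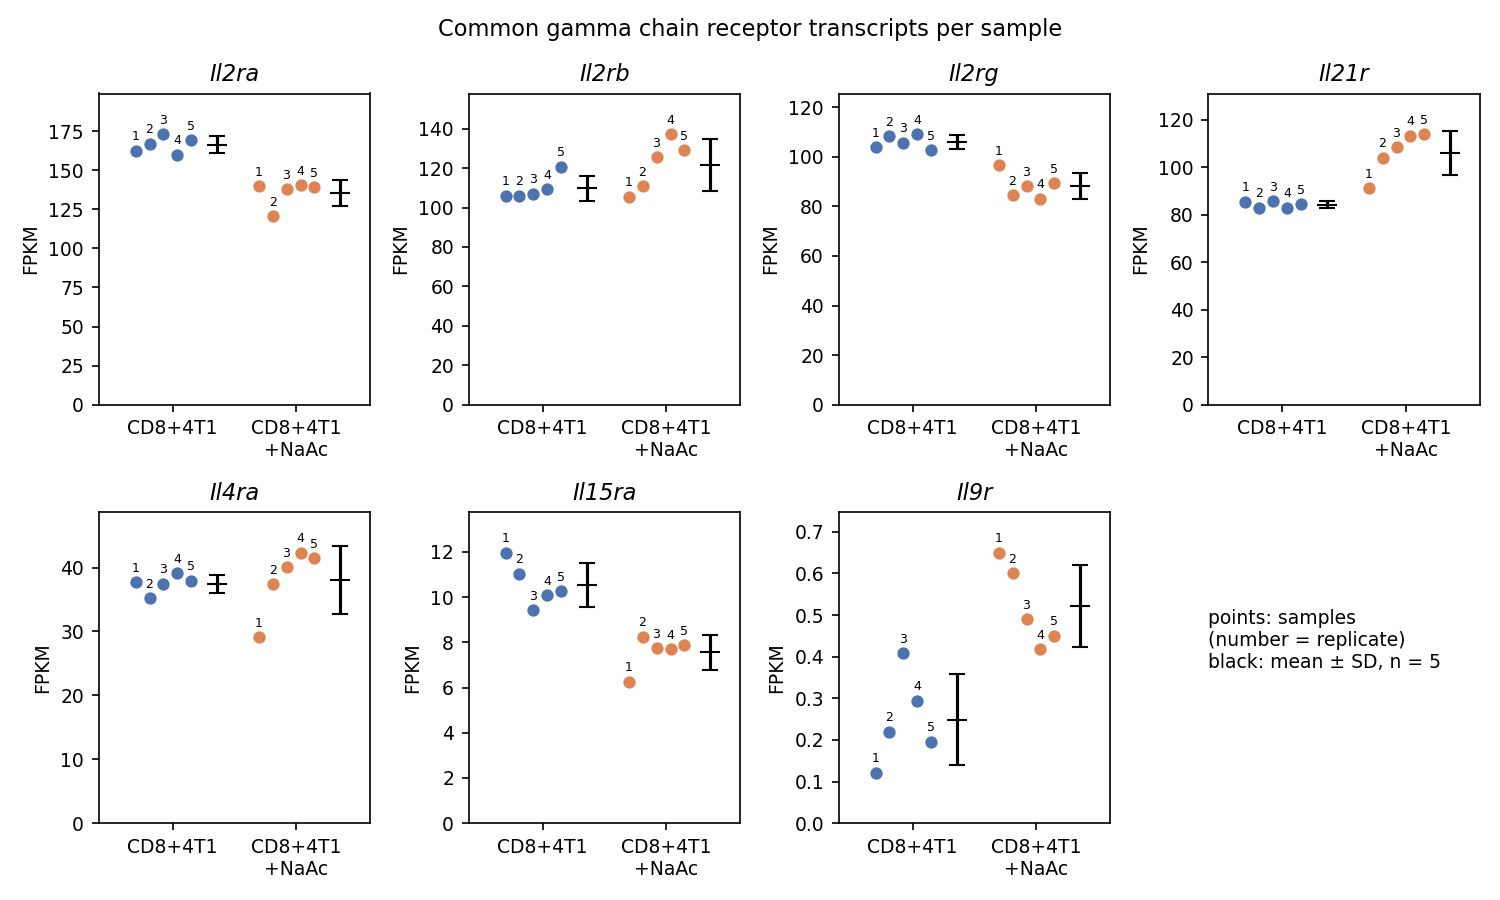
FPKM of the 7 receptor genes (y axis, linear from 0, a scale for each panel) in the 5 samples of CD8+4T1 (blue) and of CD8+4T1+NaAc (orange); the small number is the replicate, and the black bar beside the points is the mean ± SD. The groups lie apart for Il2ra, Il2rg, Il15ra, Il21r and Il9r and overlap for Il2rb and Il4ra.

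The shared chain Il2rg (ENSMUSG00000031304, chromosome X, 100307984 to 100311861, minus strand) read 104, 108, 106, 109 and 103 FPKM in CD8+4T1 replicates 1 to 5. In CD8+4T1+NaAc replicates 1 to 5 it read 96.6, 84.4, 88.2, 83.1 and 89.3 FPKM. The highest sample with NaAc, replicate 1, was below the lowest sample without it, so the groups did not overlap, as was the case for 26.4% of all genes tested. Il2rg was 1.20-fold lower with NaAc (log2 fold change -0.26 ± 0.05 (SE), limma adjusted p = 0.0019).

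Il2ra (ENSMUSG00000026770, chromosome 2, 11647618 to 11698004, plus strand), the IL-2 receptor alpha chain that T cells induce on activation, read 163, 167, 173, 160 and 169 FPKM without NaAc. With NaAc it read 140, 121, 138, 141 and 139 FPKM. All 5 samples with NaAc were below all 5 without it, and replicate 2 of CD8+4T1+NaAc was the lowest of all. The sums of 4T1 markers in CD8+4T1+NaAc replicates 1 to 5 were 82.4, 187, 114, 140 and 74.7 FPKM, the highest also in replicate 2. Whether Il2ra followed these sums was not tested. The level was 1.23-fold lower (log2 fold change -0.30 ± 0.05 (SE), limma adjusted p = 0.0016), and without replicate 2 of CD8+4T1+NaAc the log2 difference was -0.25. A listed gene within Il2ra on the same strand, Gm37881, held at most 1.84% of the fragments that Il2ra held in the same sample.

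Il15ra (ENSMUSG00000023206, chromosome 2, 11710101 to 11739128, plus strand), the private chain of the IL-15 receptor, lies 12.1 kb from Il2ra in the listed positions with no coding gene between them. It read 11.97, 11.0, 9.41, 10.1 and 10.2 FPKM without NaAc and 6.25, 8.24, 7.74, 7.69 and 7.87 FPKM with it. The groups did not overlap, and replicate 1 with NaAc stood lowest. Its fall was 1.39-fold (log2 fold change -0.48 ± 0.09 (SE), limma adjusted p = 0.0016), resting on 475 to 889 fragments per sample.

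Il2rb (ENSMUSG00000068227, chromosome 15, 78363456 to 78379471, minus strand), the signalling chain that IL-2 and IL-15 share, read 106, 106, 107, 109 and 121 FPKM without NaAc. With NaAc it read 105, 111, 126, 137 and 129 FPKM. Replicates 3, 4 and 5 with NaAc were above every sample without it, replicates 1 and 2 were not. The difference did not pass the test (log2 fold change 0.14, 95% interval -0.03 to 0.31, limma adjusted p = 0.17), and without replicate 1 of CD8+4T1+NaAc it did (0.19, limma adjusted p = 0.036). Il2rb was also called higher with sample weights (0.20, limma adjusted p = 0.019) and with voom on recovered fragments (0.24, limma adjusted p = 0.011).

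Il21r (ENSMUSG00000030745, chromosome 7, 125202601 to 125232742, plus strand), the private chain of the IL-21 receptor, was the 1 tested member that rose. It read 85.5, 82.9, 85.7, 82.9 and 84.3 FPKM without NaAc and 91.2, 104, 108, 113 and 114 FPKM with it. The samples without NaAc lay close together, and all samples with NaAc were above them, replicate 1 by the smallest margin. Il21r was 1.26-fold higher (log2 fold change 0.33 ± 0.06 (SE), limma adjusted p = 0.0019).

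Il4ra (ENSMUSG00000030748, chromosome 7, 125151292 to 125178646, plus strand) lies 23.95 kb from Il21r in the listed positions, again with no coding gene between them, and is the chain that IL-4 and IL-13 receptors share. It read 37.7, 35.2, 37.5, 39.1 and 37.9 FPKM without NaAc and 29.1, 37.4, 40.0, 42.3 and 41.5 FPKM with it. Replicate 1 with NaAc was the lowest of the 10 samples, while replicates 3, 4 and 5 were above every sample without NaAc. The log2 fold change was 0.01 (95% interval -0.20 to 0.22, limma adjusted p = 0.94), and leaving out that replicate gave 0.10. With samples scaled to the T cell markers, as described below, Il4ra was called higher (0.24, limma adjusted p = 0.041).

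Il9r (ENSMUSG00000020279, chromosome 11, 32137541 to 32150279, minus strand), the private chain of the IL-9 receptor, had a mean of 0.385 FPKM over the 10 samples and was under the filter. Its FPKM rested on 10, 19, 33, 24 and 16 fragments in CD8+4T1 and on 55, 56, 40, 35 and 37 fragments in CD8+4T1+NaAc. The lowest level with NaAc was 0.418 FPKM and the highest without it was 0.409 FPKM, so the groups lay close together without overlapping. The mean log2(FPKM + 0.1) differed by 0.88 (exact permutation test over samples, two-sided, p = 0.0079, the smallest that 5 against 5 samples can give), and in a limma fit without the filter the adjusted p was 0.039. The size depended on the pseudocount, with 0.29 for a pseudocount of 1 and 1.13 for 0.01. With 10 fragments in the lowest sample the counting error alone (exact Poisson 95% interval 4.80 to 18.4) was wide.

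The size of these differences depended on how the samples were scaled to each other. When every sample was rescaled to the same FPKM total, the median log2 difference of all genes tested moved from -0.02 to 0.16, and 78.0% rather than 48.1% of called genes were higher. Il2ra then differed by -0.12 (limma adjusted p = 0.14) and Il2rg by -0.09 (limma adjusted p = 0.23), so that both calls were lost, Il15ra stayed lower at -0.30 (limma adjusted p = 0.023), and Il2rb was called higher at 0.32 (limma adjusted p = 0.0069). Samples were also scaled to the mean of the 10 T cell markers, of which 6 were called lower as listed, beside 19.0% of all genes. All 10 averaged above 5 FPKM, a level at which 2476 of 7800 genes were lower. The median of all genes was then 0.21, 84.6% of called genes were higher, and no member was called lower. Il2rb (0.37, limma adjusted p = 0.0017) and Il4ra (0.24, limma adjusted p = 0.041) were called higher, as was Il21r. Il15ra was then at -0.25 (limma adjusted p = 0.076), Il2ra at -0.07 (limma adjusted p = 0.41) and Il2rg at -0.03 (limma adjusted p = 0.71). Il21r was called higher under each scaling, at 0.31 to 0.56. Such scalings shift nearly all genes alike. Relative to the median of all genes, the members kept their places, with Il2ra at -0.28 in the FPKM as listed and -0.27 under both rescalings, and Il21r at 0.34 and 0.35.

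**Figure D2:**
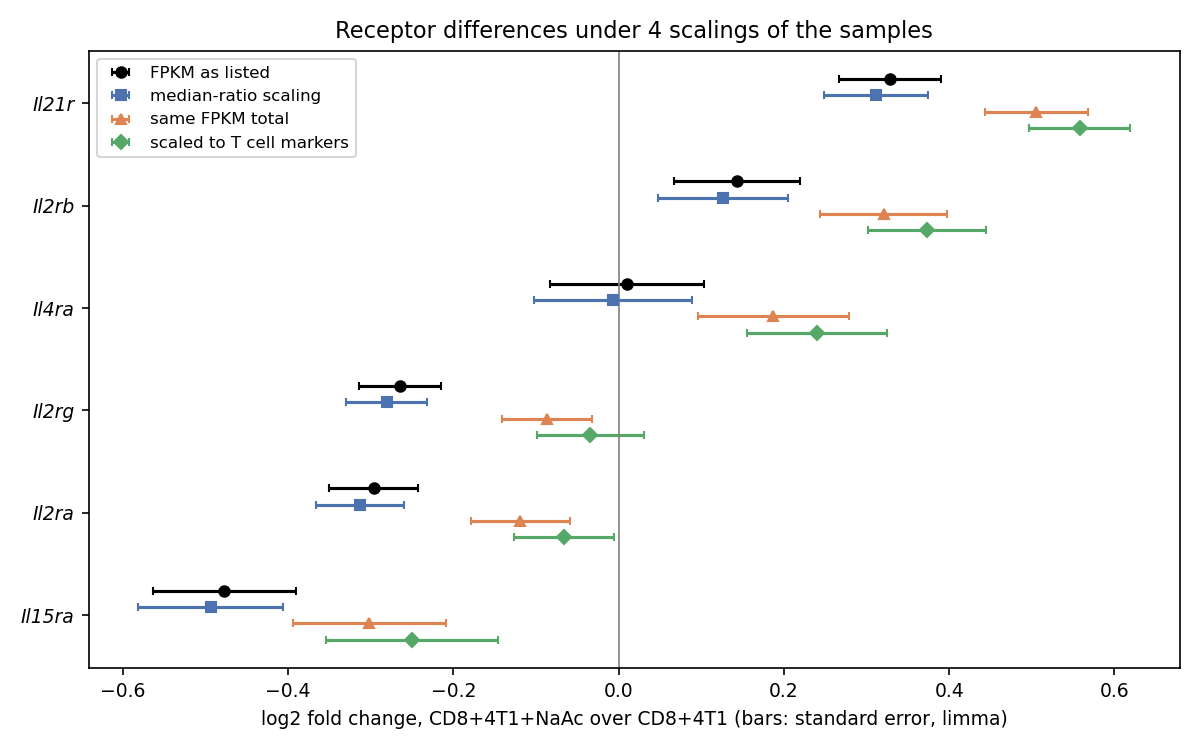
log2 fold change of the 6 tested receptor genes, CD8+4T1+NaAc over CD8+4T1 (x axis), under 4 scalings of the samples; symbols are limma estimates and bars their standard error. Il21r is above 0 under each scaling, whereas Il2ra and Il2rg lie near 0 once samples are scaled to the T cell markers.

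Ratios between the chains do not depend on that scaling. Relative to Il2rg in the same sample, Il2ra was 1.57 ± 0.08 without and 1.54 ± 0.11 with NaAc (mean ± SD, n = 5). Their ratio changed by -0.03 on the log2 scale (95% interval -0.17 to 0.11, limma adjusted p = 0.72), which allows a ratio between 0.89 and 1.08 times that without NaAc. Il21r per Il2rg was 0.823, 0.765, 0.811, 0.759 and 0.821 without NaAc and 0.9445, 1.23, 1.23, 1.36 and 1.28 with it. These ratios did not overlap, and their change was 1.51-fold (log2 0.59 ± 0.09 (SE), limma adjusted p = 0.00042). Il2rb per Il2rg was 1.02, 0.978, 1.01, 1.002 and 1.17 without NaAc and 1.09, 1.31, 1.42, 1.65 and 1.45 with it. Only replicate 1 of the samples with NaAc fell within the range of those without, and the change was 1.33-fold (log2 0.41 ± 0.10 (SE), limma adjusted p = 0.0077). The ratios of Il4ra (log2 change 0.27, limma adjusted p = 0.089) and Il15ra (log2 change -0.21, limma adjusted p = 0.15) to Il2rg did not pass the test. Since Il2rg itself was lower, 38.6% of all genes rose relative to it and 6.06% fell, so the rise of 2 of the 5 members tested in this way is near the share of all genes.

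**Figure D3:**
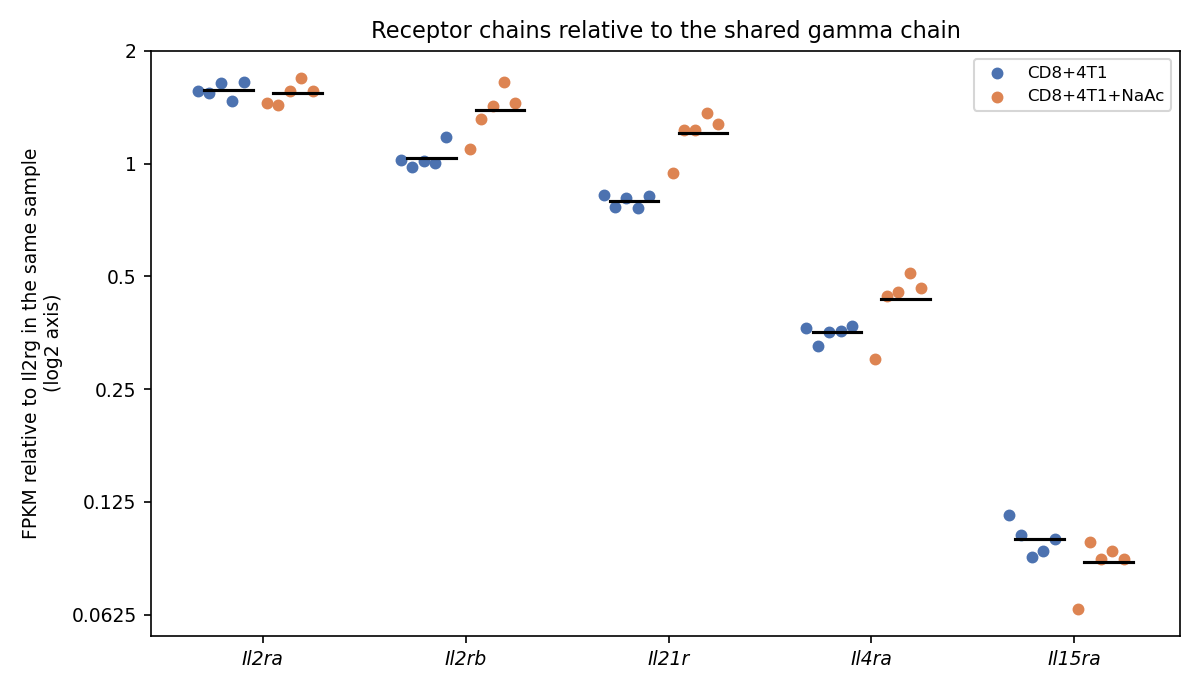
FPKM of 5 receptor chains divided by that of Il2rg in the same sample (y axis, log2 scale) in CD8+4T1 (blue) and CD8+4T1+NaAc (orange); points are samples and lines group means. Il21r ratios with NaAc (0.9445 to 1.36) are all above those without (0.759 to 0.823), and the Il2ra ratios of the groups overlap (1.46 without and 1.43 with NaAc at the lowest, 1.65 and 1.69 at the highest).

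Among the IL-2 receptor chains, the ratio of Il2ra to Il2rb is given as a description, without a share over all genes. The ratio of Il2ra to Il2rb was 1.54, 1.58, 1.62, 1.46 and 1.40 in CD8+4T1 and 1.33, 1.09, 1.10, 1.02 and 1.08 in CD8+4T1+NaAc. All samples with NaAc were below all samples without it, replicate 1 by the smallest margin. On the log2 scale the ratio fell by 0.44 (exact permutation test over samples, two-sided, p = 0.0079). This ratio was chosen after the levels were seen, so its p restates what had been seen and is no separate test. As shares of the summed FPKM of the 7 members, Il2ra went from 32.3% ± 0.78 to 27.3% ± 1.503 (SD, n = 5), Il2rg from 20.6% ± 0.73 to 17.8% ± 1.76, Il2rb from 21.3% ± 0.97 to 24.4% ± 1.36 and Il21r from 16.4% ± 0.31 to 21.3% ± 1.10. The sum itself was 515 ± 7.20 FPKM without NaAc and 498 ± 28.3 FPKM with it.

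Of 3 further chains that complete these receptors, 2 rose and 1 was not called, beside 17.6% of all genes that were higher. Il7r, the IL-7 receptor alpha chain that marks naive and memory T cells, stood at 13.6 ± 0.72 FPKM in CD8+4T1 and 24.4 ± 3.95 FPKM in CD8+4T1+NaAc. Its groups did not overlap (log2 fold change 0.82, adjusted p from limma = 0.00018). Il13ra1, which pairs with Il4ra in the IL-13 receptor of non-lymphoid cells, was 0.236 ± 0.148 FPKM without and 2.32 ± 0.58 FPKM with NaAc (log2 fold change 2.94, limma adjusted p = 0.00012, with 1.42 for a pseudocount of 1). Crlf2, the chain that joins Il7r in the TSLP receptor, was not called (log2 fold change -0.15, limma adjusted p = 0.24). Of the 15 epithelial markers, 9 were tested, 6 were called higher and none lower, with Krt8 at 3.42 ± 1.69 FPKM without and 34.2 ± 13.1 FPKM with NaAc, while Krt5 and Esrp1 were near 0 in both groups.

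Of 8 ligands listed, 4 were tested, 1 rose and none fell, beside 17.6% and 19.0% of all genes tested. Il13, the most abundant, was 26.1 ± 2.34 FPKM without and 25.2 ± 5.93 FPKM with NaAc (log2 fold change -0.08, limma adjusted p = 0.71). Tslp, an epithelial cytokine, was the ligand that rose (0.370 ± 0.135 to 1.53 ± 0.95 FPKM, log2 fold change 1.63, limma adjusted p = 0.0095, with 0.82 for a pseudocount of 1). Il9 was 1.68 ± 0.63 FPKM without NaAc and read 0.109, 3.07, 0, 1.32 and 0 FPKM with it, a spread over which it was not called (log2 fold change -2.11, limma adjusted p = 0.10). It was called lower without CD8+4T1+NaAc replicate 2 (-2.86, limma adjusted p = 0.015) and with voom on the recovered fragments (-2.34, limma adjusted p = 0.039). Il4 was not called either (0.412 ± 0.282 and 0.654 ± 0.275 FPKM, limma adjusted p = 0.26), and Il2, Il7, Il15 and Il21 had means under the filter. Of these, Il2 was at 0.242 ± 0.110 FPKM without and 0.542 ± 0.078 FPKM with NaAc on 3 to 12 fragments per sample (limma without the filter, log2 fold change 0.95, adjusted p = 0.021).

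Among 7 kinases and STAT factors, 2 rose, 1 fell and 4 were not called, a share near the 36.5% called among all genes. Jak3, the kinase that binds the gamma chain, fell from 77.4 ± 3.46 to 66.1 ± 5.44 FPKM (log2 fold change -0.23, limma adjusted p = 0.013), and the call was lost with voom (-0.14, limma adjusted p = 0.10), rescaled to the same total (-0.052, limma adjusted p = 0.61) and scaled to the T cell markers (0.00085). Jak1 was not called (log2 fold change 0.12, limma adjusted p = 0.093). Stat3, the main factor below the IL-21 receptor, rose from 79.9 ± 4.12 to 91.3 ± 6.06 FPKM (log2 fold change 0.19, limma adjusted p = 0.024), and its adjusted p ranged from 0.0094 to 0.059 with each sample left out in turn, with the call kept in 3 of 10 such fits. Stat5a, Stat5b and Stat6 were not called (log2 fold changes 0.12, -0.10 and 0.01, limma adjusted p = 0.14, 0.12 and 0.91). Jak1, Stat5a and Stat6 were called higher when samples were rescaled to the same total or to the T cell markers, at 0.35, 0.35 and 0.24 in the latter. Jak1 and Stat5a were also called higher with sample weights (0.14 and 0.15), with voom (both 0.21) and without replicate 1 of both groups (both 0.16), and Jak1 without CD8+4T1+NaAc replicate 1 alone (0.14).

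Of 6 inhibitors, 2 were higher, 2 lower and 2 not called, beside 17.6% higher and 19.0% lower among all genes. Socs3, a feedback inhibitor of cytokine signalling, rose from 11.9 ± 3.01 to 26.3 ± 6.07 FPKM (log2 fold change 1.13, limma adjusted p = 0.0011) with no overlap between groups. Socs1, which acts on JAK kinases, rose from 10.8 ± 3.34 to 18.0 ± 2.82 FPKM (log2 fold change 0.76, limma adjusted p = 0.0094). Cish and Socs2, both known targets of STAT5, were lower on average and not called (log2 fold changes -0.54 and -0.28, limma adjusted p = 0.069 and 0.082). Cish was called lower without replicate 4 of CD8+4T1 (-0.65) or of CD8+4T1+NaAc (-0.64), and Socs2 with sample weights (-0.28), without CD8+4T1+NaAc replicate 1 (-0.32) and without replicate 1 of both groups (-0.37). The phosphatases Ptpn6 and Ptpn2 fell (log2 fold changes -0.40 and -0.34, limma adjusted p = 5.9e-05 and 0.00081), and under both rescalings Ptpn6 kept its call and Ptpn2 did not.

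Of 10 genes that IL-2 and STAT5 are known to induce, 5 fell, none rose and 5 were not called, beside 19.0% lower and 17.6% higher among all genes tested. All 10 averaged above 5 FPKM. Of the 7800 genes at or above that level, fitted by themselves, 2476 were lower and 1257 higher, a larger share of falls than 19.0%. Bcl2, a survival factor, fell from 36.4 ± 1.75 to 22.02 ± 4.45 FPKM (log2 fold change -0.74, limma adjusted p = 0.00053). The kinase Pim1 fell from 126 ± 8.36 to 90.0 ± 11.6 FPKM (log2 fold change -0.49, limma adjusted p = 0.0012), and Ccnd2, Bcl2l1 and Mcl1 were also called lower (log2 fold changes -0.41, -0.31 and -0.25). Gzmb, which encodes granzyme B, was the most abundant of the list at 2232 ± 149 FPKM without and 2285 ± 170 FPKM with NaAc and was not called (log2 fold change 0.03, limma adjusted p = 0.75). Pim2, Myc, Ccnd3 and Osm were not called (log2 fold changes 0.05, 0.16, 0.17 and -0.42), although a fit blocked on replicate number called Myc higher (limma adjusted p = 0.031), and Myc and Ccnd3 with sample weights (limma adjusted p = 0.039 and 0.028) and voom. Ccnd3 was also called higher without CD8+4T1 replicate 2 or CD8+4T1+NaAc replicate 5 (both 0.21). Scaled to the T cell markers, Bcl2 alone of the 5 kept its call, and Gzmb, Pim2, Myc and Ccnd3 were called higher, at 0.26, 0.28, 0.39 and 0.40. Rescaled to the same total, Ccnd2, Bcl2l1 and Mcl1 lost their calls (limma adjusted p = 0.15, 0.17 and 0.30). Gzmb, Pim2, Myc and Ccnd3 were called higher there too, at 0.21, 0.23, 0.34 and 0.35. None of 6 genes of receptor internalisation and sorting was called in the FPKM as listed. The counts under both rescalings include some of these genes as higher, and they are not given by gene. Over these 6 lists, 36 of 40 genes were tested, 7 were higher and 8 lower, near the 17.6% and 19.0% of all genes, with a median log2 fold change of 0.01. Rescaled to the same total, 17 were higher and 3 lower, beside 4918 and 1386 of 15756 genes tested. Scaled to the T cell markers, 18 were higher and 2 lower, beside 5483 and 1000 of 15773 genes tested.

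**Figure D4:**
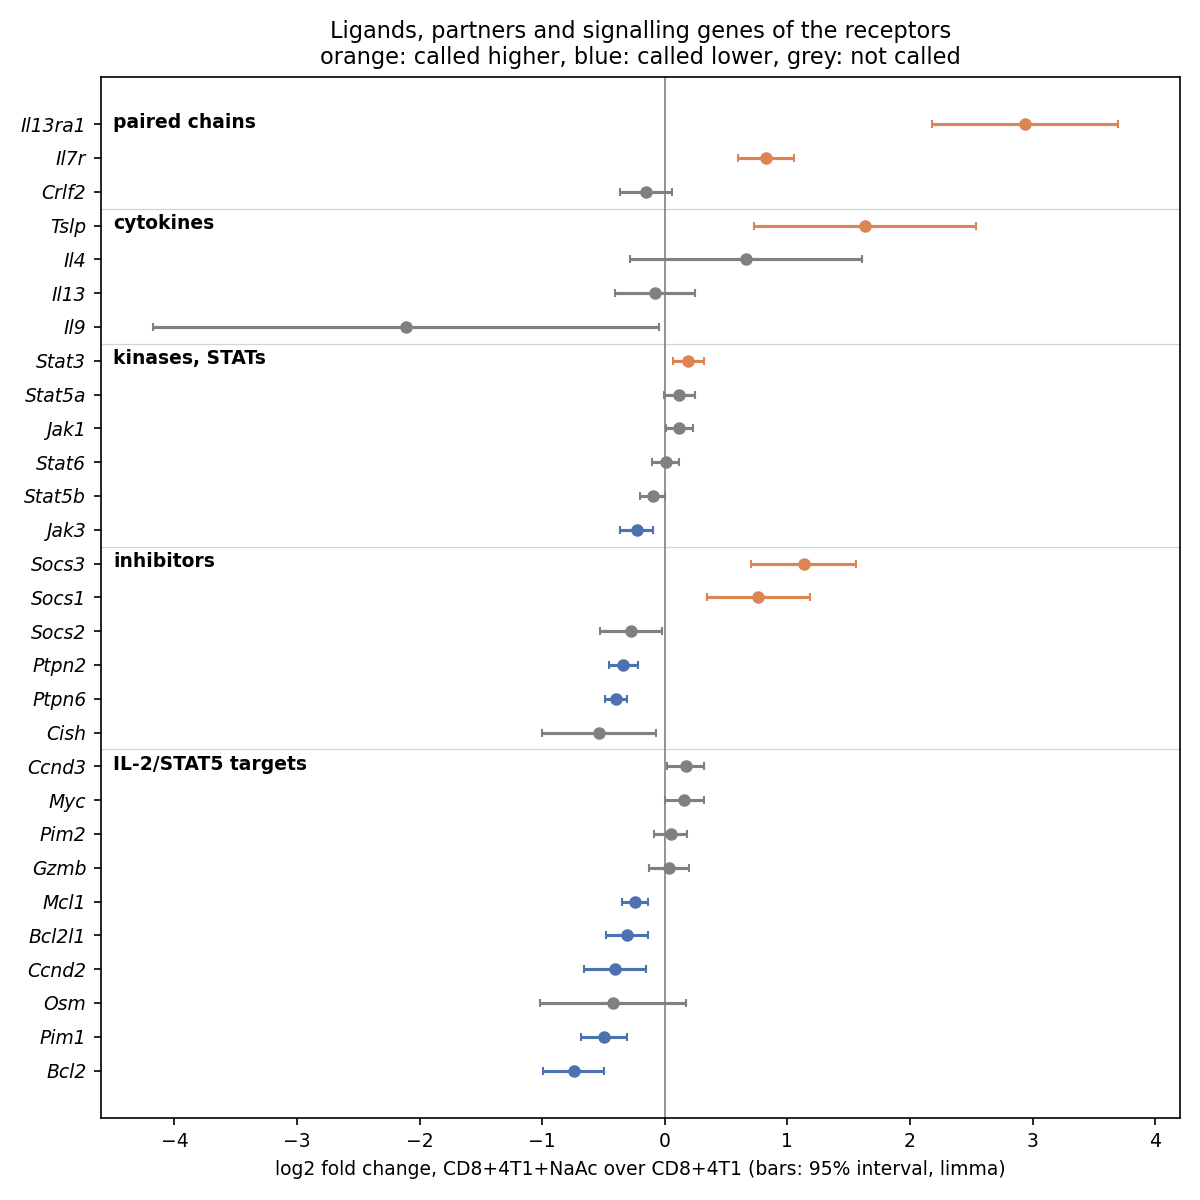
log2 fold change, CD8+4T1+NaAc over CD8+4T1 (x axis), of the tested genes named here from 5 lists around the receptors, as limma estimates with 95% intervals not adjusted for the number of genes; orange marks genes called higher, blue genes called lower and grey genes not called. Il13ra1, Tslp, Socs3, Il7r and Socs1 stand to the right, and the called IL-2 and STAT5 targets lie to the left of 0.

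The genes whose levels followed those of a receptor most closely were sought among 7047 protein-coding genes that averaged 5 FPKM or more, by Pearson's r of log2(FPKM + 0.1) over the 10 samples. These r share the difference between the groups and the libraries, and are given as a description. Il2ra was most like Mdm4 (r = 0.98), Il2rg most like Abracl (r = 0.99), Il15ra most like Mrpl45 (r = 0.98) and Il21r most like Zzef1 (r = 0.99) and Tnfrsf1b (r = 0.99). For the members that were not called, r was lower, with Ino80c closest to Il2rb (r = 0.93) and Selplg closest to Il4ra (r = 0.95).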

How the data were processed

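Per the labels and methods, libraries were made with a NEBNext Ultra kit and sequenced on a NovaSeq instrument. The submitters' processing notes name fastp, HISAT2 2.0.5, StringTie 1.3.3b and featureCounts 1.5.0-p3; genome build, annotation and strand setting are not given in the sources used here, so gene positions are those listed in the table, which are not those of GRCm38. The authors deposited FPKM per gene and sample, with gene length as another column. Fragments were recovered from FPKM and length (100% of values whole within 0.1). FPKM are not counts, so limma 3.58.1 in R 4.3.3 was run on log2(FPKM + 0.1), with variance trend and robust moderation, without covariates, leaving out genes whose mean was under 0.5 FPKM, and tested on simulated data. Fold changes on this scale understate those of low genes. The members, gene lists and tests were chosen with earlier results of these data known. Named genes were the members, the listed pathway and marker genes, and for each tested member the 2 genes most like it, of which the closest are given. No protein sequences were used here, and 1 gene of the kinase and STAT list is counted but not reported by itself. Alternatives were other pseudocounts, filters, scalings, moderation, sample weights, voom on recovered fragments, the replicate block and samples left out.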

Additional observations from a re-analysis of the deposited data

Results flagged for a closer look

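In groups of 5 samples, the gap between the most extreme sample and the next was compared with the whole range. A gap over 0.71 of the range set a sample apart in 13 of 102 groups checked, where chance gives about 5.1. Of these, 6 were CD8+4T1+NaAc replicate 1, 3 were CD8+4T1 replicate 1 and 3 were CD8+4T1 replicate 5.

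In CD8+4T1+NaAc, Il2ra was set apart low in replicate 2 (gap over range 0.870), and replicate 1 was set apart low in Il15ra (0.747), in Stat6 (0.713) and in the ratios of Il4ra (0.735), Il15ra (0.739) and Il21r (0.716) to Il2rg. The number of genes above 0 FPKM was also lowest in that replicate, 20233 (0.916), and in replicate 1 of CD8+4T1, 22291 (0.848). In CD8+4T1, replicate 5 was set apart high in Il2rb (0.754), in Osm, a cytokine gene induced by STAT5 (0.852), and in the ratio of Il2rb to Il2rg (0.773). Replicate 1 of CD8+4T1 was set apart low in Gzmb (0.870) and high in Stam, an adaptor of receptor sorting (0.762).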

How the results depend on the processing

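With each sample left out in turn, log2 fold changes were -0.31 to -0.25 for Il2ra, -0.30 to -0.24 for Il2rg, -0.52 to -0.41 for Il15ra and 0.30 to 0.38 for Il21r, all still called. They were 0.10 to 0.19 for Il2rb (called without CD8+4T1+NaAc replicate 1), -0.031 to 0.10 for Il4ra, 0.73 to 1.03 for Il9r, -0.18 to 0.042 for Il13, -0.011 to 0.046 for Stat6 and -0.011 to 0.078 for Gzmb. Members called higher then numbered 1 to 2, beside 2347 to 3379 of all genes tested. The ratio of Il4ra to Il2rg changed by 0.21 to 0.40, called without CD8+4T1+NaAc replicate 1. The log2 change of Il2ra over Il2rb was -0.50 to -0.41.

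Rescaled to the same total, values were -0.12 for Il2ra, 0.32 for Il2rb, -0.087 for Il2rg, 0.023 for Crlf2, 0.10 for Il13 and 0.077 for Stat5b. Members called higher and lower numbered 2 and 1, all genes 4918 and 1386, and genes of the pathway lists 17 and 3. Scaled to T cell markers, values were -0.066 for Il2ra, 0.37 for Il2rb, -0.034 for Il2rg, 0.24 for Il4ra (called), -0.25 for Il15ra, 0.076 for Crlf2, 0.15 for Il13, 0.00085 for Jak3 and 0.13 for Stat5b. The same counts were 3 and 0, 5483 and 1000, and 18 and 2. Median-ratio scaling gave -0.0063 for Il4ra and -0.0080 for Stat6. In the main fit 2764 of 15710 genes tested were higher. Sample weights gave 0.20 for Il2rb (called) and 0.38 for the ratio of Il4ra to Il2rg (called). With them 2 members, 13 pathway genes and 3718 of 15710 genes tested were higher. Voom gave 0.24 for Il2rb (called) and 0.012 for Il13, with 2 members, 13 pathway genes and 3990 of 15710 genes tested higher. Without replicate 1 of both groups, Gzmb was at -0.027 and the ratio of Il4ra to Il2rg at 0.41 (called). There 11 pathway genes and 3429 of 15645 genes tested were higher. Without a filter 2 members were higher, Il9r being the second, and with a mean of at least 5 FPKM 1257 genes were. The cause of these shifts was not tested.

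Same-numbered samples of the groups did not deviate together (r from -0.03 to 0.07), and no label pairs them. With the replicate block, adjusted p-values from limma were 0.0081 for Il2ra, 0.013 for Il2rg, 0.012 for Il15ra, 0.0088 for Il21r 0.12 for Il2rb and 0.031 for Myc, the 1 member or pathway gene fitted whose call changed, and 2551 genes were higher and 2848 lower. Among the 7 members the fewest fragments were those of Il9r, 10 to 56 fragments per sample. Over all alternatives, 963 values kept their direction and side of the threshold or, as counts of genes, stayed within 1.5 times, 44 gained a call, 23 lost one, 20 changed sign and 20 counts moved further.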
